A study of Mus musculus with 8 samples.

Results

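Hepatic stellate cells were followed through 9 genes of their quiescent and activated states in liver RNA from Ube3a mutant mice. The members were taken by name: Lrat, Reln, Des, Dcn, Pdgfra, Pdgfrb, Tgfb1, Timp2 and Timp3. All 9 had a row in both deposited tables, among 13774 genes in one and 11773 in the other. The study set C57BL/6 mice with an altered dose of Ube3a, a ubiquitin ligase gene, against wild-type mice after 8 weeks on a diet with 42% fat. Libraries were made from whole liver in 4 groups of 2. Mice homozygous for a Ube3a transgene, labelled Ube3a TG homo and said to overexpress Ube3a, had a WT pair of their own. Ube3a het mice, in which 1 allele is knocked out and the other is wild type, had a second WT pair. All 4 groups ate the high-fat diet, so no library shows these genes on a standard diet. The labels name no promoter for the transgene and no age, and leave it unsaid if libraries of 1 group are different mice. All p-values thus rest on the spread of these libraries alone, part of which may be technical.

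Stellate cells lie between the hepatocytes and the sinusoidal endothelium and hold most of the body's vitamin A as retinyl esters in lipid droplets. When the liver is injured they lose these stores, take on the features of myofibroblasts and become the main source of scar collagen. Signals through the PDGF receptors drive their proliferation, TGF-beta drives matrix production, and the TIMPs slow the removal of matrix by blocking metalloproteinases. Whole liver holds many cell types, of which stellate cells are a minor one, and Tgfb1, for example, is also made by macrophages. Fewer cells of a type and less RNA per cell cannot be told apart in such samples.

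Taking the smallest step between a library's normalised values as 1 read, which was not established for every library, a library held between 44193275 and 47928229 reads in the TG table and between 13171145 and 17748088 in the het table. On the same reading the 9 genes had 229 to 9601 reads each in a library of the TG table and 61 to 2241 in one of the het table. Values below are normalised read counts, divided by a factor per library by the authors and separately in each table, so that levels are not compared across tables. Ube3a itself had 5991 and 5938 in TG livers, against 1187 and 1359 in WT livers. In het livers it had 301 and 279.5, against 369 and 409 in WT livers, a ratio of means of 0.746. Other defining genes of quiescent stellate cells were present as well: Hand2, Lhx2, Ngfr, Colec11 and Hgf all had rows in both tables. The colectin gene Colec11 stood at 1857 and 1492 in TG livers, against 1900 and 1906 in WT, and at 667 and 659 in het livers, against 708 and 701 in WT. Of 24 listed genes of the quiescent state outside the 9, 24 had a row in the TG table and 22 in the het table, where Gfap and Prph had none. Markers of stellate cells outside the 9 genes were thus measured as well, though not all of them in het.

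No member passed the test in either mutant. By limma's adjusted p under 0.05, 0 of 9 were called in TG, where 0% of all genes were called, and 0 of 9 in het, where 1.44% were (0.892% higher and 0.544% lower). The 13774 genes without a call in TG include Ube3a itself, despite its far higher values there. A lack of a call in TG therefore does not show that a gene was unchanged. For the difference of the effects, the fold change in TG minus that in het, 0 of 9 were called beside 0.434% of all genes (0.204% higher and 0.23% lower). At an unadjusted p under 0.05 there were 3 of 9 in TG, beside 9.12% of all genes. Reln and Pdgfra were the 2 higher ones, where 5.15% of all genes were higher, and Timp3 the 1 lower, where 3.96% were lower. In het there was 1 of 9, Timp3, on the higher side, beside 14.7% of all genes (8.58% higher and 6.11% lower). The difference of the effects had 2 of 9, Reln higher and Timp3 lower, beside 16.7% of all genes (8.42% higher and 8.28% lower).

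Both mutant libraries lay outside the range of both WT libraries for 5 of 9 members in TG (3 higher, 2 lower) and 4 of 9 in het (2 higher, 2 lower). Among all genes that was so for 43.5% in the TG table (21.8% higher, 21.6% lower) and 48% in the het table (24.3% higher, 23.7% lower), so the counts of members stand near the background. All 9 members had log2 fold changes of opposite sign in TG and het, as did 58.7% of the 11754 genes in both tables. The signs of Lrat, Pdgfrb and Timp2 in TG were not stable, since they turned under another scaling of the libraries. For 4 of 9 members the libraries were apart from WT in both tables, in opposite directions, as they were for 15.1% of all genes. Timp3 and Tgfb1 lay below WT in TG and above WT in het, as did 7.86% of all genes. Reln and Des lay above WT in TG and below WT in het, as did 7.23%. No member was apart in the same direction in both tables, where 7.22% of all genes were.

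**Figure D1:**
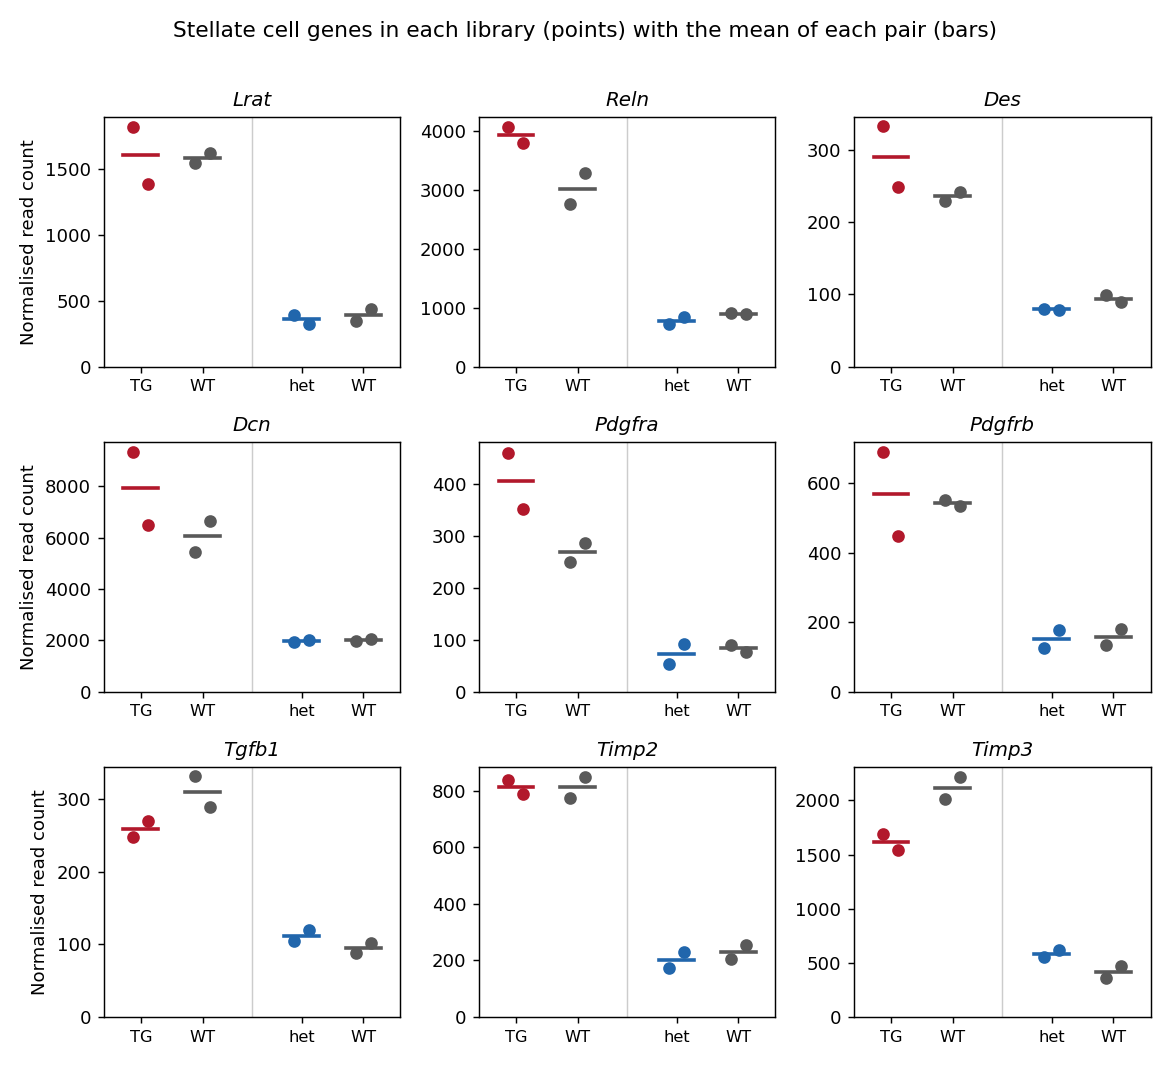
Normalised read counts (vertical axes, from 0) of the 9 genes in each library, with points for libraries and bars for the means of pairs; TG and its WT pair are left of the line, het and its WT pair right of it, and the tables were normalised separately, so heights are not comparable across the line. Timp3 is at 1692 and 1539 in TG livers and at 2012 and 2214 in their WT pair, and at 552 and 614 in het livers and 357 and 474 in theirs.

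The sequences before the transcription starts of these 4 genes are shown because their libraries were apart in both tables. They are RefSeq windows of GRCm38.p6 with up to 250 bases, read on the gene's strand and ending before the first annotated exon base. Capitals mark matches to GGGCGG, the GC box, or to CANNTG, the E-box, on either strand.
Timp3, chr10:86300162-86300371, + strand: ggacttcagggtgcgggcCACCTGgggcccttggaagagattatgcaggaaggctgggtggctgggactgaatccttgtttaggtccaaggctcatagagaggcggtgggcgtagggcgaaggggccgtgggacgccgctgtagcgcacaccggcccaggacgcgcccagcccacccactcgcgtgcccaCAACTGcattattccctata
Tgfb1, chr7:25686752-25687001, + strand: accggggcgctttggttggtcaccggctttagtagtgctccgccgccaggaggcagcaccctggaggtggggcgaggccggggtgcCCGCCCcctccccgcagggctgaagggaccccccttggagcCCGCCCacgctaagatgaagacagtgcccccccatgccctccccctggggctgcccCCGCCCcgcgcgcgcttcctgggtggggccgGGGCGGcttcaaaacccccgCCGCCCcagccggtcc
Reln, chr5:22344706-22344955, - strand: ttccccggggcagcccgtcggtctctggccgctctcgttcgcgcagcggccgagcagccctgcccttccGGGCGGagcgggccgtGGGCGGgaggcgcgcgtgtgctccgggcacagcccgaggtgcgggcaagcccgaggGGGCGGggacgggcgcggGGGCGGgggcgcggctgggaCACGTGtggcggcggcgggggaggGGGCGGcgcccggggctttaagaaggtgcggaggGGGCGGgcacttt
Des, chr1:75360042-75360291, + strand: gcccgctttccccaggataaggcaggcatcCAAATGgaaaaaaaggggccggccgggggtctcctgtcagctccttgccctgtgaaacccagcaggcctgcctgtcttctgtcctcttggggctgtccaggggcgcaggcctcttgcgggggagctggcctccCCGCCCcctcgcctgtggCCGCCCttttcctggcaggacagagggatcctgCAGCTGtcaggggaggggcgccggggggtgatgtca
RefSeq windows were found for 7 of 9 members, all but Dcn and Pdgfrb, and were searched over the full 250 bases. A GC box was matched 6 times in Reln, 5 times in Tgfb1, 2 times in Des, once each in Lrat, Timp2 and Timp3 and nowhere in the Pdgfra window. The Timp3 match lies in the last bases of its window, which GENCODE places in an exon and which are not printed. The whole Timp2 window lies inside the gene as GENCODE draws it, so its matches are not before that start. Of all 32851 windows of that length, 32.7% held a GC box and 66.2% an E-box. The motif TGANTCA of AP-1 (6.75% of windows), CAGACA of SMAD proteins (17.1%), TATAAA (12.4%) and the CArG box of serum response factor (1.47%) had no match in any of the 7. The GC content of the windows ran from 54.4% in Pdgfra to 80.0% in Reln. Matches describe the letters only, and the 4 genes printed do not fall into their 2 directions by them: Reln and Tgfb1 hold the most GC boxes and lay on opposite sides of WT.

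Per kilobase of annotated exon, the order of the members was nearly the same in the tables. Dcn stood first in every library, with 1603 and 1114 normalised reads per kilobase in TG and 934 and 1143 in WT, and Lrat second in both WT pairs. Pdgfra was last, at 45.9 and 35.1 per kilobase in TG livers, against 24.8 and 28.6 in WT. Between these ends the WT means of the TG table ran Timp3 (259), Timp2 (209), Reln (127), Pdgfrb (99.4), Des (62.8) and Tgfb1 (61.6). Neighbours Des (61.0 and 64.6) and Tgfb1 (65.8 and 57.3) overlapped there, and so in the het table's WT pair did Timp2 (52.8 and 65.5) and Timp3 (43.8 and 58.2), whose order was exchanged. In het mice Timp3, at 67.7 and 75.4 per kilobase, reached the level of Lrat, at 73.6 and 61.0.

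Among the genes of vitamin A storage and the quiescent state, Lrat (chromosome 3, 82892579 to 82903973, - strand, GRCm38) encodes the acyltransferase that makes retinyl esters, and is among the most specific genes of stellate cells in liver. It stood at 1824 and 1392 in TG livers, against 1547 and 1625 in WT. One TG library lay above and the other below both WT libraries, and the log2 fold change was 0.01 (SE 0.16, 95% interval -0.41 to 0.42, adjusted p = 0.99). In het the values were 394 and 327, against 345 and 435 in WT (log2 fold change -0.11, SE 0.15, interval -0.45 to 0.23, adjusted p = 0.768). The groups overlapped in both tables, and all differences within these intervals remain possible.

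Reln (chromosome 5, 21884454 to 22344702, - strand) encodes reelin, a large secreted glycoprotein best known from neuronal migration, which stellate cells make in liver. It stood at 4071 and 3791 in TG livers, against 2760 and 3279 in WT. Both TG libraries were above both WT libraries, a 1.31-fold level (log2 fold change 0.38, SE 0.14, 95% interval 0.03 to 0.74, limma's adjusted p = 0.54). The het libraries, at 716 and 845, were both below WT, at 913 and 886. There the log2 fold change was -0.21 (SE 0.11, interval -0.45 to 0.04, adjusted p = 0.411). The difference between the effects in TG and het was 0.59 log2 units (SE 0.18, interval 0.18 to 1.00, limma's adjusted p = 0.183). Left out in turn, no library turned the direction in TG (0.26 to 0.51) or in het, with -0.09 when het replicate 1 and -0.33 when het replicate 2 was omitted.

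Desmin, encoded by Des (chromosome 1, 75360329 to 75368579, + strand), is the intermediate filament protein used to mark stellate cells in rodents, and is also made by smooth muscle. Its values were 333 and 248 in TG livers, against 229 and 243 in WT. The second TG library exceeded the nearer WT library by only a few reads, and the log2 fold change of 0.29 (SE 0.21, 95% interval -0.23 to 0.81, adjusted p = 0.676) was 0.08 without TG replicate 1 and 0.50 without TG replicate 2. Het libraries held 80.1 and 78.2, against 99.5 and 89.2 in WT, again with no overlap (log2 fold change -0.25, SE 0.18, interval -0.66 to 0.17, adjusted p = 0.566). The difference of the effects was 0.53 (SE 0.26, adjusted p = 0.349), and 0.32 without TG replicate 1.

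Decorin is a small leucine-rich proteoglycan that coats collagen fibrils and binds TGF-beta. Its gene Dcn (chromosome 10, 97479609 to 97518143, + strand) is also active in portal fibroblasts and was the most abundant of the 9. Dcn stood at 9356 and 6504 in TG livers, against 5454 and 6672 in WT, so that a single TG library set the mean apart. The log2 fold change was 0.37 (SE 0.22, 95% interval -0.20 to 0.94, adjusted p = 0.635), with 0.11 left without TG replicate 1, 0.63 without TG replicate 2 and 0.23 without WT replicate 1. In het the values were 1931 and 2024, against 1979 and 2049 in WT. Here the interval was the narrowest of any member (log2 fold change -0.03, SE 0.09, interval -0.24 to 0.19), and differences beyond about 0.24 log2 units lie outside it. That bound depends on the fit: with all 8 libraries fitted together the SE was 0.18.

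The PDGF receptors carry the proliferation signal. The gene of the alpha chain, Pdgfra (chromosome 5, 75152292 to 75198215, + strand), stood at 460.0 and 352 in TG livers, against 249 and 287 in WT. Both TG libraries were above both WT libraries, the largest fold change of the 9 in that table (log2 fold change 0.59, SE 0.20, 95% interval 0.08 to 1.09, limma's adjusted p = 0.534). Without TG replicate 1 it was 0.39 and without TG replicate 2 it was 0.78. Among the het libraries Pdgfra was at 52.6 and 92.0, against 90.7 and 76.9 in WT, from 61 and 80 reads against 93 and 75. These groups overlapped, and the log2 fold change of -0.26 (SE 0.28, interval -0.90 to 0.38) turned to 0.14 without het replicate 1 and was -0.66 without het replicate 2 and -0.14 without WT replicate 1.

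Pdgfrb (chromosome 18, 61045150 to 61085061, + strand), the receptor induced when stellate cells are activated, had its TG libraries on either side of WT. Its values were 690.0 and 447 in TG livers, against 553 and 536 in WT (log2 fold change 0.03, SE 0.23, 95% interval -0.56 to 0.62, adjusted p = 0.977). In het they were 126 and 177, against 136 and 180.4 in WT (log2 fold change -0.07, SE 0.21, interval -0.56 to 0.43, adjusted p = 0.919). Both intervals reach past 0.4 log2 units on each side. No difference was detectable with these libraries, while ones of that size lie within the intervals.

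Tgfb1 (chromosome 7, 25687002 to 25705077, + strand) encodes the cytokine that drives collagen synthesis. It stood at 248 and 269 in TG livers, against 332 and 289 in WT, and at 104 and 119.6 in het livers, against 87.8 and 103 in WT. In each table the groups were apart, by little in het. Its log2 fold change was -0.26 in TG (SE 0.17, 95% interval -0.69 to 0.17, adjusted p = 0.654) and 0.23 in het (SE 0.18, interval -0.17 to 0.64, adjusted p = 0.587). The value in TG was -0.16 without WT replicate 1, and that in het 0.12 without WT replicate 1 and 0.14 without het replicate 2. The difference of the effects was -0.49 (SE 0.23, interval -1.04 to 0.05, limma's adjusted p = 0.336).

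The last members encode tissue inhibitors of metalloproteinases. Timp2 (chromosome 11, 118301069 to 118355740, - strand), whose product takes part in the activation of MMP2 as well as in inhibition, stood at 838 and 787 in TG livers, against 776 and 849.8 in WT. The TG libraries lay within the range of WT and the log2 fold change was 0.00 (SE 0.13, 95% interval -0.32 to 0.32, adjusted p = 0.999). In het it stood at 172 and 231, against 206 and 255 in WT (log2 fold change -0.20, SE 0.18, interval -0.61 to 0.21, adjusted p = 0.649).

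Timp3 (chromosome 10, 86300372 to 86349506, + strand), the TIMP that stays bound to the matrix and also inhibits the sheddase ADAM17, came nearest to a call. It stood at 1692 and 1539 in TG livers, against 2012 and 2214 in WT, a 1.31-fold lower level (log2 fold change -0.39, SE 0.13, 95% interval -0.70 to -0.07, limma's adjusted p = 0.526). In het it stood at 552 and 614, against 357 and 474 in WT, a 1.41-fold level (log2 fold change 0.50, SE 0.14, interval 0.16 to 0.84, limma's adjusted p = 0.169). All mutant libraries of each table were outside the WT range. The difference of the effects, -0.89 log2 units (SE 0.21, interval -1.37 to -0.41, limma's adjusted p = 0.125), did not pass, nor did that of the other 8 members. That of Pdgfra was close in size, at 0.85 (SE 0.39, adjusted p = 0.322), and exceeded it in 4 of 8 fits without a library, as without het replicate 2, where Pdgfra had 1.25 and Timp3 -0.81. Without WT replicate 2 of the het table the het value was 0.70 and passed (limma's adjusted p = 0.0469), and without WT replicate 1 it was 0.30 (adjusted p = 0.43).

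Timp3 lies inside Syn3, a synapsin gene on the other strand, and 1733 bases, 21.3% of the annotated exon length of Timp3, are also exon of Syn3. Whether counting used strand is not given in the sources used here, so reads from those bases may be shared between them or lost. Syn3 stood at 158 and 185 in TG livers, against 169 and 169.8 in WT, and at 50.8 and 42.6 in het livers, against 50.7 and 42.0 in WT. Its log2 fold change was 0.01 in both tables. Antisense or small genes also overlap exons of Des, Reln and Pdgfra, by at most 5.86% of the member's exon length, and are not analysed here.

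**Figure D2:**
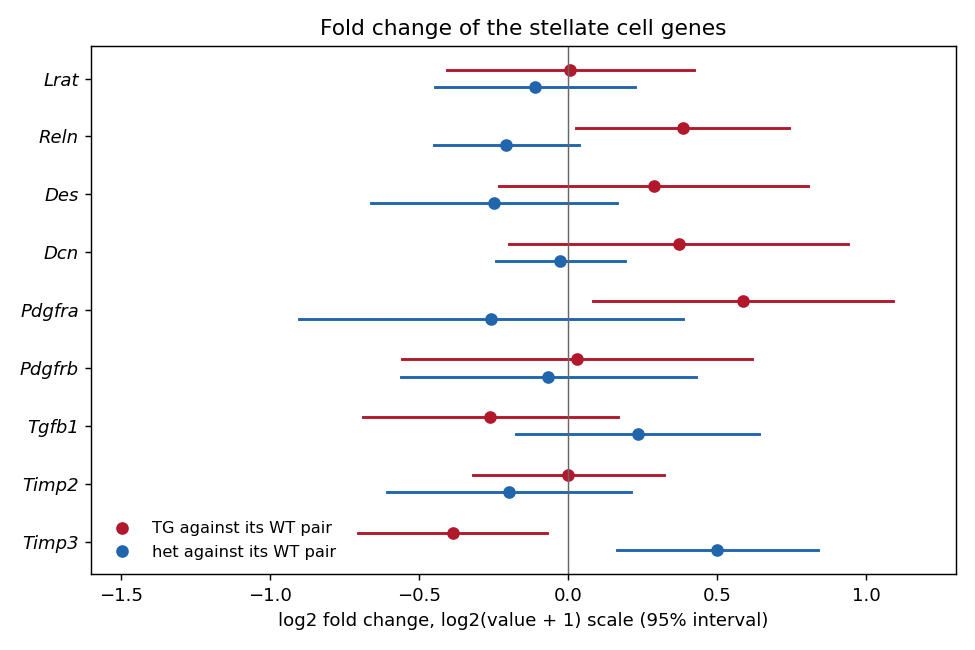
Log2 fold change of the 9 genes (horizontal axis, log2(value + 1) scale) in TG, red, and het, blue, each against its own WT pair, with 95% intervals from limma. Timp3 is the gene whose intervals leave out 0 in both mutants, from -0.70 to -0.07 in TG and from 0.16 to 0.84 in het.

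Libraries of the same mutant differed in the level of most members. TG replicate 1 exceeded TG replicate 2 in 8 of 9 members, all but Tgfb1, with a median gap of 0.39 log2 units, while the median absolute gap of all genes between those libraries was 0.22. The largest of these gaps were those of Pdgfrb (0.63) and Dcn (0.52). In het the order was the other way: replicate 2 exceeded replicate 1 in 7 of 9, all but Des and Lrat, with a gap of 0.80 in Pdgfra. Within the WT pairs replicate 2 was higher in 7 of 9 members in the TG table and in 6 of 9 in the het table. The median gaps of members there, replicate 1 minus replicate 2, were -0.13 and -0.22. The median absolute gaps of all genes in these WT pairs were 0.18 and 0.15. The median of the 9 deviations from WT was 0.34 in TG replicate 1 and -0.04 in TG replicate 2, and -0.23 in het replicate 1 and 0.01 in het replicate 2. The members on 1 side of the WT mean in both libraries of each mutant were Timp3, Tgfb1, Reln and Des.

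**Figure D3:**
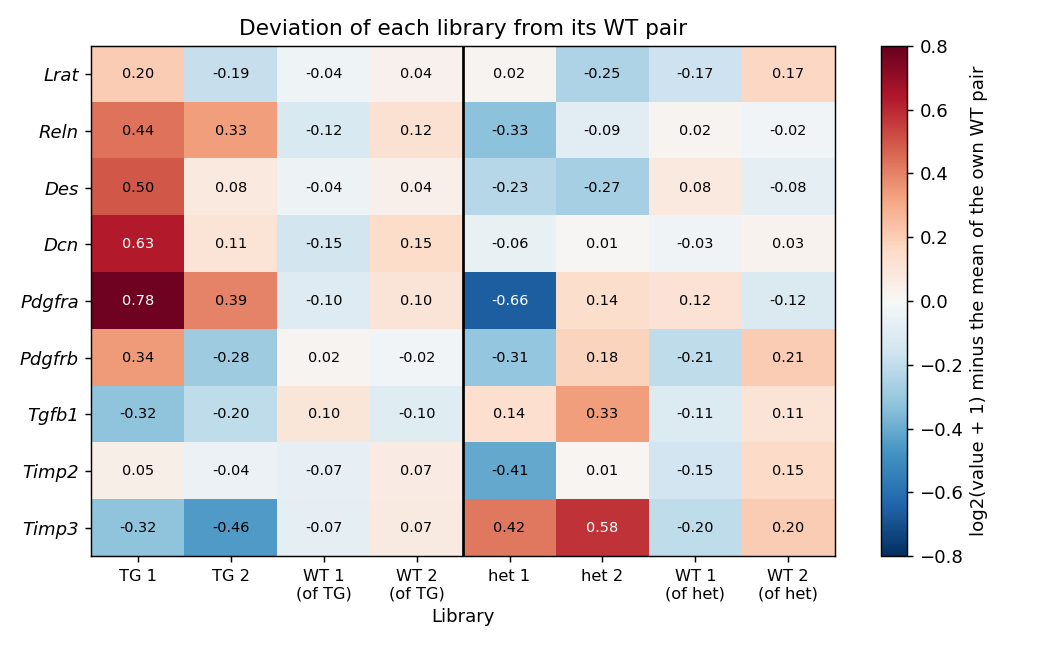
Deviation of each library (columns) from the mean of its own WT pair in log2(value + 1) units, for the 9 genes (rows), red above and blue below WT. TG replicate 1 reaches 0.78 in Pdgfra and 0.63 in Dcn, where TG replicate 2 has 0.39 and 0.11, while Timp3 is below WT in both TG libraries and above it in both het libraries.

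Around the members, further genes of the quiescent state gave 0 calls of 24 measured in TG and 0 of 22 in het, with median log2 fold changes of 0.11 and -0.05; the medians of all genes were 0.00 in both tables. Hand2, a transcription factor of quiescent stellate cells, stood at 370.3 and 369.6 in TG livers, against 205 and 314 in WT (log2 fold change 0.54, adjusted p = 0.57). Ngfr, the low-affinity neurotrophin receptor, stood at 165 and 130.2 in TG livers, against 203 and 196 in WT (-0.44, adjusted p = 0.584). In het the smallest p-values belonged to Rgs5, a regulator of G protein signalling also found in pericytes, at 132 and 119.6 against 75.1 and 89.2 in WT (0.61, adjusted p = 0.159), and to the intermediate filament gene Nes, at 62.1 and 64.4 against 41.0 and 36.9 in WT (0.69, adjusted p = 0.214).

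Of the genes induced in myofibroblasts, 0 of 28 passed in TG (median log2 fold change -0.18) and 1 of 25 rose in het (median 0.17). Collagen genes of this list were not called: Col1a1 stood at 492 and 257 in TG livers, against 529 and 374 in WT, and Col1a2 at 297 and 294 in het livers, against 199.9 and 235 in WT (0.45, adjusted p = 0.148). Col1a1 in het and Col1a2 in TG are not reported here, so these values do not compare the mutants. Timp1, the inhibitor most strongly tied to activation, lay near the lowest mean level of the TG table, at 2.92 and 14.0 in TG livers, against 26 and 6.06 in WT. Acta2, the smooth muscle actin of myofibroblasts, was at 110.1 and 47.1 in TG livers, against 82 and 100.03 in WT; neither gene had a row in the het table, where they are not analysed here. The smallest p of the list in TG was that of the tropomyosin gene Tpm1, at 1731 and 1736 against 1221 and 1319 in WT (0.45, adjusted p = 0.5).

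Partners of the receptors and ligands showed few calls. Of PDGF ligands and signalling partners 0 of 14 passed in TG and 0 of 12 in het, the lowest p-values being those of the phosphatase genes Ptpn12 in TG (0.29, adjusted p = 0.545) and Ptpn11 in het (0.30, adjusted p = 0.182). In the TGF-beta pathway 0 of 31 passed in TG, with a median of 0.16, and 1 of 27 in het, with a median of 0.04. Bambi, a decoy receptor of the pathway, stood at 305 and 178 in TG livers, against 203 and 184 in WT, and at 54.3 and 59.8 in het livers, against 80.9 and 91.2 in WT; the difference of the effects was 0.85 (SE 0.36, adjusted p = 0.288). Other TIMPs and metalloproteinases gave 0 of 16 in TG and 0 of 13 in het. Mmp14, the membrane enzyme that TIMP2 and TIMP3 inhibit, stood at 1137 and 1422 in TG livers, against 931 and 987 in WT (0.41, adjusted p = 0.541). Reelin receptors and signalling genes gave 0 of 5 in both tables; Vldlr, a receptor of reelin, stood at 344 and 296 in het livers, against 258 and 288 in WT (0.22, adjusted p = 0.464).

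Retinoid genes outside the members, most of which hepatocytes express strongly, gave 0 of 22 in TG and 2 of 22 in het. Rdh16, a retinol and steroid dehydrogenase, rose to 6698 and 4817 in het livers, against 2732 and 3085 in WT (log2 fold change 0.97, SE 0.16, limma's adjusted p = 0.0442), and close paralogs may share its reads. Cyp26a1, which breaks down retinoic acid, fell to 402 and 291 in het livers, against 618 and 651 in WT (-0.89, SE 0.15, adjusted p = 0.0442). Each was still called without 1 of the 4 libraries only, Rdh16 without het replicate 2 and Cyp26a1 without het replicate 1; without the others adjusted p ran to 0.179 and 0.166. In TG the smallest p was that of Cyp26b1, a related hydroxylase, at 291 and 324 against 514 and 617 in WT (-0.87, SE 0.17, adjusted p = 0.382).

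Markers of neighbouring cells also lay to one side of WT in each table. Endothelial genes lay below WT in 20 of 20 cases in TG (median log2 fold change -0.25, 0 called) and above WT in 19 of 20 in het (median 0.32, 2 called). Their mean log2 level was -0.23 and -0.31 from WT in the TG libraries, against -0.03 and 0.03 in WT, and 0.29 and 0.37 in the het libraries, against -0.05 and 0.05 in WT. Timp3 and Tgfb1 had the signs of these genes in each table, and the other 7 members had the opposite signs. Of those 7, only Reln and Des kept their sign in both tables under all alternatives run. Lrat (0.01), Pdgfrb (0.03) and Timp2 (0.00) in TG and Dcn (-0.03) in het were too close to 0 for a stable sign. Summed, the 20 endothelial genes came to 24946 and 24774 in TG livers, against 29254 and 29961 in WT, and to 8792 and 8998 in het livers, against 7292 and 7724 in WT. The called genes were Lyve1 (0.92, adjusted p = 0.0403) and Gpr182 (0.67, adjusted p = 0.0442); left out in turn, 1 library of 4 kept the call of Lyve1 (WT replicate 2) and 0 of 4 that of Gpr182. Gpr182 was also called for the difference of the effects (-1.07, limma's adjusted p = 0.0457), a call kept in 2 of 8 fits without a library, those without TG replicate 1 or TG replicate 2. The defining endothelial markers Stab2, Clec4g, Pecam1, Kdr and Cdh5 had a row in both tables. The signs were not particular to endothelium. Medians were also below 0 in TG and above 0 in het for Kupffer cell and macrophage genes (-0.34 and 0.23). The same held for smooth muscle and pericyte genes (-0.13 and 0.37) and myofibroblast genes (-0.18 and 0.17), but not for the other cell type lists. The part of RNA from endothelial or these other cells in the values of Timp3 and Tgfb1 was not tested.

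Kupffer cell and macrophage genes lay below WT in 19 of 20 cases in TG (median -0.34, 0 called) and above WT in 16 of 19 in het (median 0.23, 0 called). Their mean log2 level was -0.54 and -0.09 from WT in the TG libraries, against 0.04 and -0.04 in WT, and -0.01 and 0.47 in the het libraries, against -0.21 and 0.21 in WT. Their summed level was 31332 and 42633 in TG livers, against 49285 and 45655 in WT, and 13562 and 17375 in het livers, against 11314 and 14680.2 in WT. Smooth muscle and pericyte genes had a median of -0.13 in TG (0 of 12 called) and 0.37 in het (0 of 9). One of them, the adhesion molecule gene Mcam, differed between the effects by -2.48 log2 units (SE 0.25, limma's adjusted p = 0.0152). Mcam stood at 102 and 89.1 in TG livers, against 341 and 304 in WT, and at 127 and 133 in het livers, against 71.2 and 85.1 in WT, and its call ended without WT replicate 1, het replicate 1 or het replicate 2 of the het table. Portal fibroblast and proteoglycan genes gave no call in 19 and 16 genes, with medians of -0.13 and -0.05.

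Of mesothelial genes, 3 of 5 measured fell in het (Upk3b, Slpi and Gpm6a), with a median of -1.96, and 0 of 11 passed in TG, with a median of 0.13. The uroplakin gene Upk3b stood at 14.7 and 16.1 in het livers, against 79.0 and 73.8 in WT (log2 fold change -2.24, SE 0.26, limma's adjusted p = 0.00891), a call that ended without WT replicate 1 of the het table. The call of Slpi held without het replicate 2 only, and that of Gpm6a in 0 of 4 such fits. Summed, the 5 genes came to 152 and 171 in het livers, against 411 and 395 in WT. Msln and Efemp1 were the other genes with a row, while Wt1 and Upk1b had none in the het table. The difference between TG and het was not called for any of the 5. In those libraries Timp3 stood at 552 and 614 in het livers, against 357 and 474 in WT. In the TG table the mesothelial genes differed widely between libraries of 1 group. There the 11 genes summed to 1025 and 1463 in TG livers, against 1593 and 854 in WT. Their mean log2 level was -0.29 and 0.43 from WT in the TG libraries, against 0.47 and -0.47 in WT. The part of mesothelial RNA in the values of the members was not tested. Cholangiocyte, lymphocyte and hepatocyte genes gave 0 calls in both tables, with 9, 14 and 18 genes measured in TG and 4, 5 and 18 in het.

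**Figure D4:**
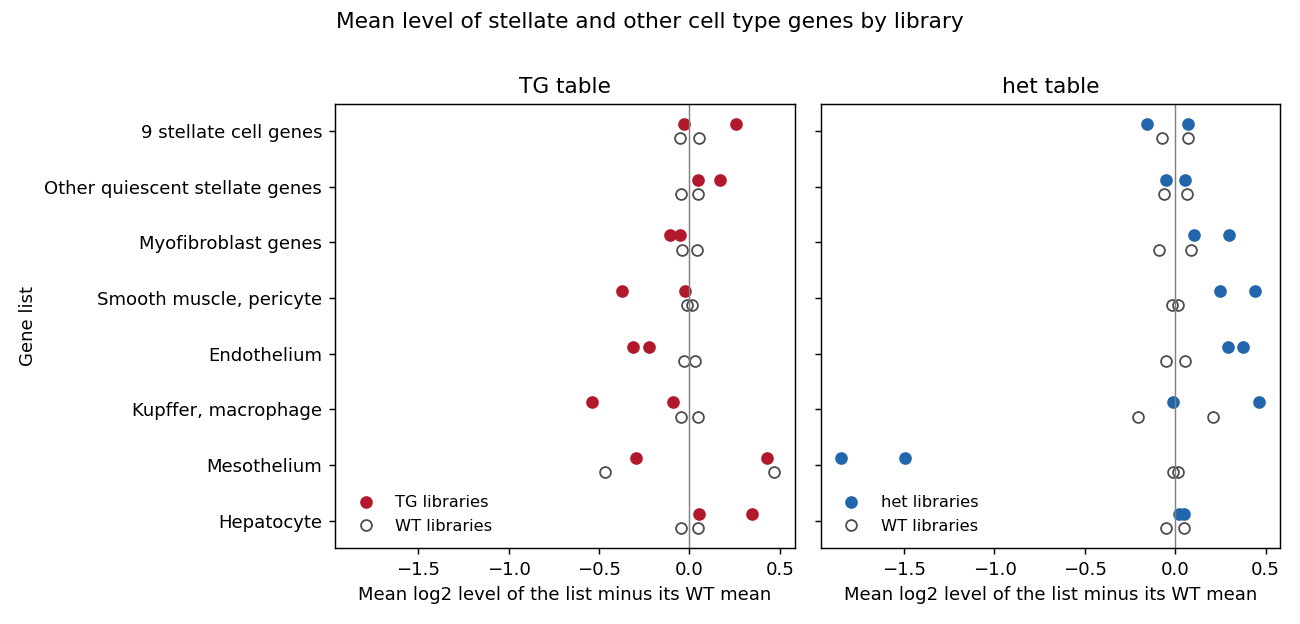
Mean log2(value + 1) level of each gene list (rows) in each library minus the mean of its own WT pair (horizontal axis), filled points for the mutant and open points for WT, TG table left and het table right. Endothelial genes are at -0.23 and -0.31 in TG and at 0.29 and 0.37 in het, while the 9 stellate cell genes are at 0.26 and -0.03 in TG and at -0.16 and 0.07 in het.

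Genes alike in pattern to each member were sought among 10223 genes with a mean of at least 50 in both tables, by the root mean square difference over the 8 libraries after subtraction of the own WT mean. Dcn was nearest to Abcc9, a potassium channel regulator that is itself on the quiescent stellate list, at 0.05 log2 units, followed by Vamp2 and Pnrc2 (0.06 and 0.07). Timp3 was nearest to Vac14 and Cd84 (0.06 each) and Vopp1 (0.09), against a root mean square of 0.34 of its own deviations. Nearest to Reln were Wbp5 (0.05), Papolg and Fgfr1op (0.06 each), and nearest to Des were Pygo2, Taf15 and Rere (0.05 each). For Tgfb1 they were Rptor, Entpd6 and Plekho1, at 0.04, 0.04 and 0.05. Pdgfra had no neighbour as close, its nearest being Cd72 at 0.11, then Fkbp11 and Kctd6 at 0.14. Pdgfrb was nearest to Bcl2l12 and Lsp1 (0.08 each) and Col16a1 (0.09), Lrat to Kptn, Dnase1l1 and Ikbkb (0.07 each), and Timp2 to Ighmbp2 (0.07), Chd4 and Herc3 (0.08 each).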

How the data were processed

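An Illumina TruSeq kit was used on total RNA of liver, per the labels' protocols. Tools listed in the submitters' processing notes, without roles, are featureCounts, Subread 1.5.2 and DESeq2, on mm10 (GRCm38). Which annotation and strand setting they used is not given here. The deposited signal values were taken as reads per gene that the authors divided by 1 factor per library: 100% of a library's values were whole multiples of 1 step within 0.001. Each table was tested on its own with limma 3.58.1 in R 4.3.3 (trend and robust estimates) on log2(value + 1), a scale that understates the change of low genes, with Benjamini-Hochberg adjustment over all its genes and a threshold of 0.05. The difference of the effects was a contrast of 8 libraries over 11754 genes, and every WT pair carries the scale of its own table. The fit was tested on simulated data. Spreadsheet dates replace 20 names in the TG table and 18 in the het table; these stayed in the tests and are not named. Positions and exon lengths are from GENCODE M21 (GRCm38), matched by symbol (96.4% of TG and 96.6% of het names). Only genes above a mean of 11.2 (TG) or 17.8 (het) have a row.

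The 9 members and the other 15 gene lists were chosen with earlier results of these data known, and no list was given a test of its own. Named beside the members were called genes of each list (up to 3) or the 2 of smallest p, cell type markers, and, after their values were seen, Col1a2 and Bambi. Some genes counted in the lists are not reported here by name. Alternatives were pseudocounts of 0.5 and 5, TMM scaling, library sizes without the 20 most abundant genes, a mean of at least 50, no robust estimates, the replicate number as a block, 1 fit of all 8 libraries, leaving out each library and, added after the data were seen, no variance trend.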

Additional observations from a re-analysis of the deposited data

How the results depend on the processing

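With 2 libraries a group, leaving out 1 of them leaves a lone library that is assumed to vary like the other group; the het table also rests on fewer reads. The planned count tests (edgeR, DESeq2 and limma-voom) were not run, since the deposited values are normalised and the size of 1 read could be established for 1 of 8 libraries only. Replicate numbers are shared by the groups, and nothing says that they pair animals: same-numbered libraries deviated with r = 0.11 in the TG table and -0.04 in the het table. With the replicate block limma called 0 genes in TG and 138 in het, 46 for the difference of effects, and 0 members; without it 0, 169 and 51 genes were called.

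Timp3, Tgfb1, Reln and Des kept their direction in TG, in het and in the difference under all alternatives run, as did Pdgfra and Dcn in TG. No member was called in any of them except Timp3 in het without WT replicate 2, so that the number of members called there ran from 0 to 1 over the libraries left out. Genes called in TG were 25 when the 8 libraries were fitted together, and 0 to 146 (without TG replicate 2) when a library was left out. In het they were 93 without robust estimates, 0 with no variance trend (chosen after seeing the data), 0 in the fit of 8 libraries, and 61 to 173 without a library. For the difference of the effects they were 9 with no variance trend and 5 (without WT replicate 1 of het) to 643 (without TG replicate 2); the cause was not tested. In the TG table Timp2 turned to -0.0013 under TMM scaling, and with library sizes without the 20 most abundant genes Lrat turned to -0.026, Pdgfrb to -0.0044 and Timp2 to -0.033. Otherwise members turned only when a library was left out. In TG this was over ranges of -0.19 to 0.20 (Lrat), -0.28 to 0.34 (Pdgfrb) and -0.065 to 0.066 (Timp2). In het the ranges were -0.28 to 0.055 (Lrat), -0.061 to 0.0073 (Dcn), -0.66 to 0.14 (Pdgfra), -0.31 to 0.18 (Pdgfrb) and -0.41 to 0.013 (Timp2). In the difference they were -0.077 to 0.31 (Lrat), -0.22 to 0.41 (Pdgfrb) and -0.012 to 0.41 (Timp2).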
